A study of Mus musculus with 8 samples.

Results

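Complex I, the NADH dehydrogenase of the inner mitochondrial membrane, was followed at the level of its nuclear-encoded subunit transcripts in resting T cells. The genes were taken by symbol: all rows of the deposited table named Ndufa, Ndufb, Ndufc, Ndufs or Ndufv with a number, leaving out the Ndufaf assembly factors. This gave 37 of 22609 genes. The RNA came from naive CD8 T cells taken without culture from spleens of C57BL/6 mice at 3 months of age, and was sequenced in 4 libraries from Brca1 wild type mice (WT 45, 54, 57 and 65) and 4 from mice labelled Het for Brca1 (Het 31, 53, 56 and 139). The labels do not give the construction of the Brca1 allele, the sex of the mice, or any batch. They do not say whether libraries came from separate animals, so p-values measure only the spread between these libraries, which may be technical. Values are normalized read counts as the authors deposited them.

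Complex I takes electrons from NADH, passes them along a chain of iron-sulfur clusters to ubiquinone, and couples this to proton pumping across the membrane. A matrix arm holds the NADH site and the clusters, and a membrane arm holds the pumps. A small set of core subunits, conserved from bacteria, does the chemistry. The many accessory subunits stabilise the complex and are needed for its assembly. Quiescent naive T cells draw largely on mitochondrial respiration, and the subunits of complex I are encoded both in the nucleus and in mitochondrial DNA. The mitochondrially encoded subunits were not analysed here, since no row of the table carried their names. Of the 37 genes, 7 encode core subunits, 9 accessory subunits of the matrix arm, 9 accessory subunits of the proximal membrane arm and 10 accessory subunits of the distal membrane arm. The other two, Ndufa4 and Ndufa4l2, carry the name without being complex I subunits: Ndufa4 belongs to complex IV, and Ndufa4l2 encodes a relative of it known to be induced in hypoxia. The pattern does not take Ndufab1, the mitochondrial acyl carrier protein, which is a true subunit and is given separately.

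Brca1 itself was at 208.1, 148.6, 168.3 and 206.2 in WT libraries 45, 54, 57 and 65, against 174.5, 142.2, 126.7 and 169.6 in Het libraries 31, 53, 56 and 139 (limma adjusted p = 0.742), which gives no check of the genotype labels. The T cell marker Cd8a lay between 40591 and 50265.2 in the 8 libraries. All libraries share nearly 1 distribution of values, so their totals do not show depth. Genes above 0 numbered 15358 to 15569 in each WT library and 13863 to 14656 in each Het one, and the lowest value above 0 was between 0.2 and 0.3 (WT) or 0.9 and 1.9 (Het). These steps matter little for the subunits, of which 24 had a mean over 1000 and the lowest one tested a mean of 87.3. Genes above 0 and lowest values split by genotype without overlap. A difference in depth, if present, cannot be told apart from genotype.

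Some subunits share sequence with other annotated genes, among them near-identical pseudogene copies, and this bears on which values can be read. Each member's RefSeq-linked transcript in GENCODE M21 (mouse build GRCm38, while the submitters' processing notes name mm9) was compared with all transcripts of other annotated genes, in windows of 50 bases. Of the 37 members, 15 shared at least 1 window with another gene on the same strand, and 6 shared more than 20% of their windows. These were Ndufa12 (53.8%), Ndufs5 (41.2%), Ndufb4 (37.0%), Ndufs3 (35.8%), Ndufb2 (24.4%) and Ndufb9 (23.4%). For Ndufa12, Ndufs5, Ndufb4 and Ndufs3 the main partner is annotated as a pseudogene. For Ndufb2 and Ndufb9 it is annotated as a transcript of nonsense-mediated decay and not as a pseudogene. Whether that partner is a copy or overlaps the gene itself was not checked. Windows of an overlapping gene on the opposite strand were found in 10 members, most in Ndufb6 (34.1%, with Smim27) and Ndufa13 (27.1%, with Tssk6). The libraries were made with a stranded kit, but the strand setting of the counting is not given in the sources used here. Whether the reads of such pairs were kept apart in these values is therefore not known.

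Ndufs5, an accessory subunit of the proximal membrane arm, and Ndufb4, of the distal arm, show how far such copies go, and their coding sequences are printed for that reason. Ndufs5 (GRCm38 chr4:123712710-123718202, minus strand) has a coding sequence of 318 bases, of which the last 300 are shown. Ndufb4 (GRCm38 chr16:37647170-37654453, minus strand) has one of 387 bases, of which the first 150 are shown. Capitals mark bases that lie in a run of at least 50 identical bases in the copy, which is BC002163 (GRCm38 chr16:42955631-42955949, plus strand) for Ndufs5 and Ndufb4c (GRCm38 chr15:73809507-73809896, minus strand) for Ndufb4.
Ndufs5: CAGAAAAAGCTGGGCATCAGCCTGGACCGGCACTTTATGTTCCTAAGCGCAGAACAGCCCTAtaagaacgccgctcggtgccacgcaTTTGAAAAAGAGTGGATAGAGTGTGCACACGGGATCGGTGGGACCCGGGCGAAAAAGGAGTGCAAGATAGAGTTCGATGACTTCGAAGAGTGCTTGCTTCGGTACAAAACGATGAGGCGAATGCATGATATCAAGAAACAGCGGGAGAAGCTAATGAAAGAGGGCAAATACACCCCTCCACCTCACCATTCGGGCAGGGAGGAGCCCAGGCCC
Ndufb4: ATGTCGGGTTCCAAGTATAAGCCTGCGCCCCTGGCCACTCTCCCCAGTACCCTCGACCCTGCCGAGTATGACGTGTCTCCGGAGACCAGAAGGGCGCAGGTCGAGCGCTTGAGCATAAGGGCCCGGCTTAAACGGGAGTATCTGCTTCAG
The longest identical run within the coding sequence was 213 bases in Ndufs5 and covered all 387 bases in Ndufb4.

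Ndufs5 was listed at 0 in each of the 8 libraries. Its copy BC002163, a row of its own in the table, was at 181.4, 229.4, 258.4 and 79.1 in WT libraries 45, 54, 57 and 65, against 91.9, 97.7, 246.3 and 260.5 in Het libraries 31, 53, 56 and 139. Its low libraries, WT 65, Het 31 and Het 53, came from both genotypes (limma adjusted p = 0.937). The copy shares 41.2% of the windows of Ndufs5, and the rest of its windows were found in no other annotated gene. A gene listed at 0 throughout gives no level. Why Ndufs5 was at 0, and whether its reads were placed on the copy, was not tested.

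Ndufb4 was the lowest member tested, at 54.8, 40.6, 72.1 and 112.7 in WT libraries 45, 54, 57 and 65, against 148.2, 122.3, 62.1 and 85.9 in Het libraries 31, 53, 56 and 139. WT 65 was above Het 56 and Het 139, so the genotypes overlap. Per kilobase of transcript, the mean normalized read count was 89.9 for Ndufb4. For the 6 members with more than 20% of windows shared the median was 594 per kilobase, and for the other 30 members, leaving out Ndufa4l2, it was 1615, with a range of 616 to 5373. The highest of these levels were those of Ndufa6, of the matrix arm (5373 per kilobase), and Ndufb10, of the distal membrane arm (3700). The median of the 6 members counts Ndufs5 at 0, though that gives no level. The rest of them were at 89.9 (Ndufb4), 581 (Ndufa12), 606 (Ndufs3), 940 (Ndufb2) and 2012 (Ndufb9) per kilobase. Ndufb9 thus lay above the median of the other 30. How reads of shared windows were assigned is not given in the sources used here, so levels of these members are uncertain. An effect of the shared sequence on them was not tested.

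**Figure D1:**
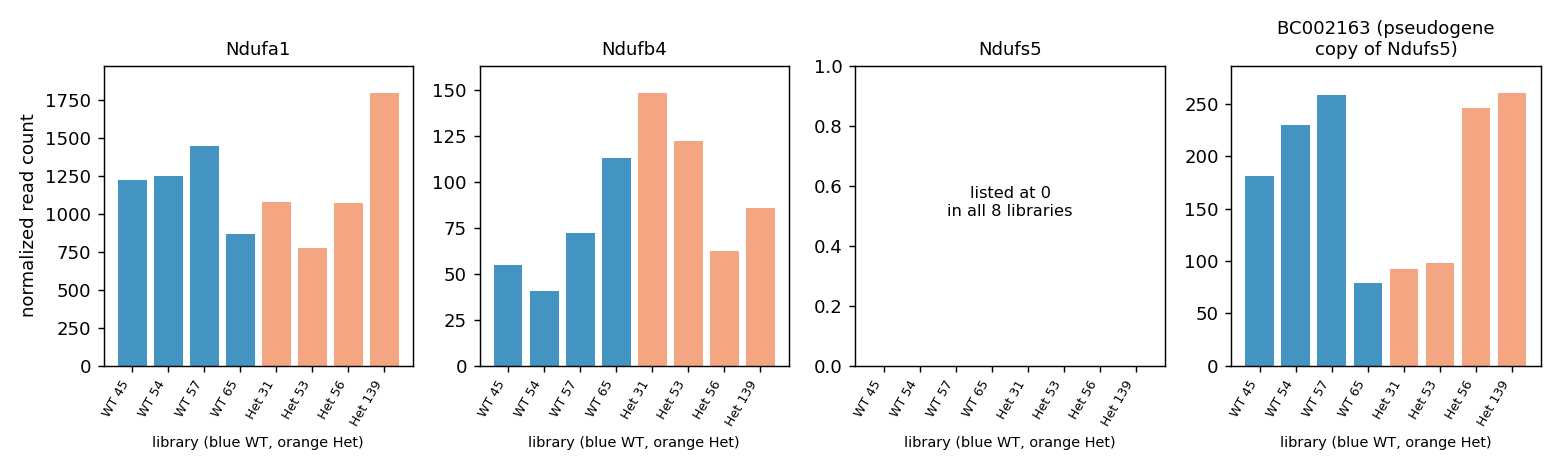
Normalized read count in each library (bars; WT blue, Het orange; y axes differ and start at 0) of Ndufa1, Ndufb4, Ndufs5 and the Ndufs5 copy BC002163. Ndufs5 is listed at 0 in all 8 libraries while its copy lies between 79.1 and 260.5.

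Ndufa4l2 was the other member below the filter for testing, which asked for a mean of 10 or more. It was at 2.4, 1.2, 0 and 0 in WT libraries 45, 54, 57 and 65, against 0, 2.1, 1.9 and 0 in Het libraries 31, 53, 56 and 139. The other 35 members passed the filter, and none had to be high in 1 genotype to do so.

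Between the genotypes no complex I member passed the test, while most lay slightly higher in Het. Of the 35 tested, 0 passed the limma test on log2(value + 1) at an adjusted p under 0.05, against 0.515% of the 12048 genes tested, and the smallest adjusted p was 0.372. The genes that passed, 62 in number, were all lower in Het, and 0 of the 12048 passed as higher. Most differences were small and positive: 29 of 35 members (82.9%) had a higher mean log2 level in Het, against 52.0% of all tested genes, and the median log2 difference was 0.15 against 0.01 over all tested genes. An unadjusted p under 0.05 was seen in 3 members, Ndufa3, Ndufa7 and Ndufs4 (8.57%), close to the 8.19% of all genes. The genotypes did not overlap in 1 member (2.86%), against 5.0% of all genes. The differences ran from -0.13 to 0.60, and for 32 of the 35 members the 95% interval left out a change of 2-fold in either direction. Without Ndufa4, the 34 true subunits tested had a median of 0.15, with 28 higher in Het. The 16 tested members that share no window with another gene had a median of 0.14, with 13 higher.

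**Figure D2:**
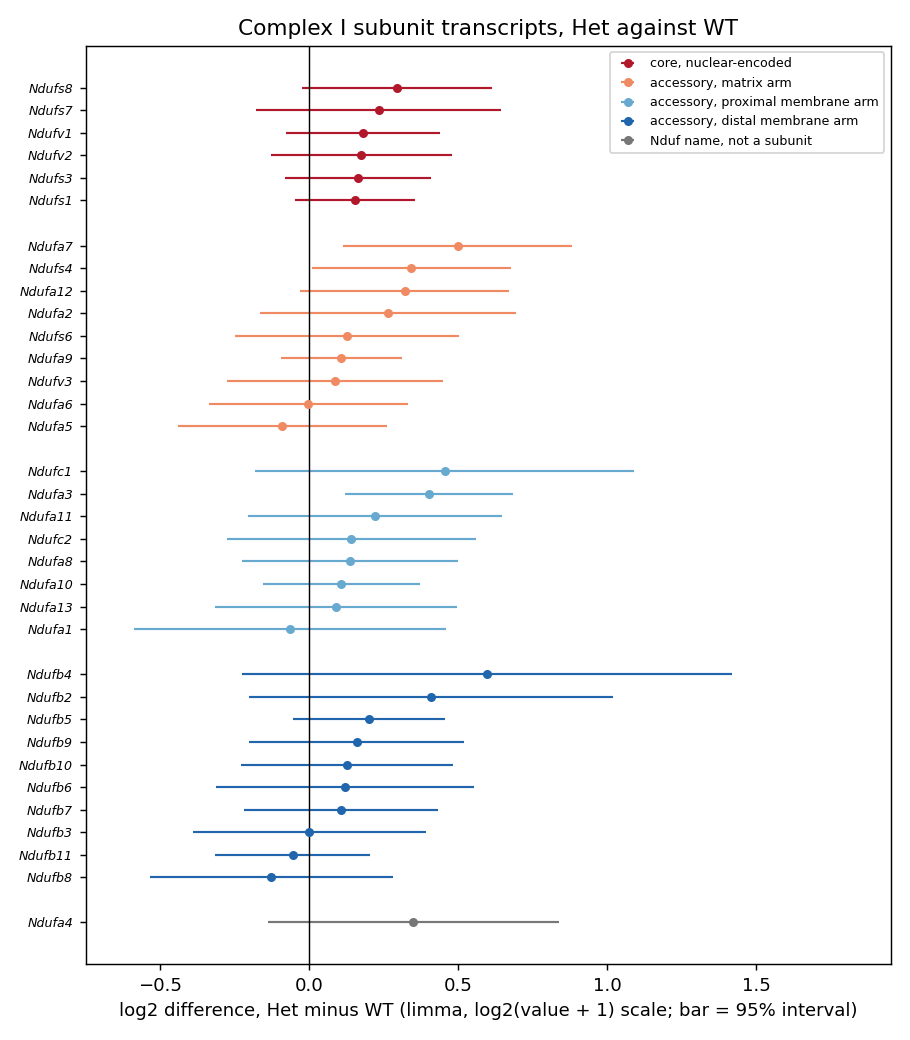
Log2 difference, Het minus WT, of 34 of the 35 tested members (points; limma, log2(value + 1) scale) with 95% intervals (bars), ordered within position groups by colour. The core subunits lie above 0, up to 0.29, and the intervals of 3 members, Ndufa3, Ndufa7 and Ndufs4, do not hold 0.

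All 7 core subunits had a higher mean log2 level in Het, by small and similar amounts, and none passed the test. Ndufv1, which binds NADH and its flavin cofactor, was at 2097.9, 2341.2, 2394.7 and 2438.6 in WT libraries 45, 54, 57 and 65, against 3004, 2479.5, 2151.6 and 2940.8 in Het libraries 31, 53, 56 and 139 (log2 difference 0.18, SE 0.12, limma adjusted p = 0.690). Het 31, Het 53 and Het 139 were above every WT library, Het 53 by little, and Het 56 lay within the WT range. Ndufv2, a cluster-bearing partner of Ndufv1, was at 1727.2, 1982.9, 1757.1 and 1739.4 in the WT libraries, against 2442.1, 1926.5, 1560.3 and 2315.9 in the Het libraries, in the same order (log2 difference 0.17, limma adjusted p = 0.742). Here Het 56 was the lowest of the 8. Ndufs1, the largest subunit, which carries several iron-sulfur clusters, was at 2375.2, 2466.2, 2407.5 and 2625.2 in WT libraries 45, 54, 57 and 65, and 2867.7, 3023.2, 2405 and 2720.7 in Het libraries 31, 53, 56 and 139 (log2 difference 0.15, limma adjusted p = 0.666).

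Ndufs7, which carries the last cluster of the chain, was at 1057.6 to 1628.2 in WT, with 2352.4 in Het 31 and 1349.3 to 1642 in Het 53, 56 and 139 (log2 difference 0.23, limma adjusted p = 0.744). Ndufs8, a subunit with a pair of clusters, was at 1158.9, 1338.8, 1333.4 and 1325.7 in the WT libraries, against 1929.4, 1271.1, 1358.2 and 1865.1 in the Het libraries, the largest core difference (0.29, limma adjusted p = 0.646). Again Het 31 and Het 139 stood above the rest, while Het 53 lay within the WT range and Het 56 just above it. Ndufs3, at 563.1 to 626.2 in WT and 591.5 to 731.2 in Het, has the pseudogene copy named above (log2 difference 0.16, limma adjusted p = 0.704).

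Among the 9 accessory subunits of the matrix arm 7 had a higher mean log2 level in Het, and none passed. Ndufa7 had the largest difference, with 921.6, 1089.2, 1125.1 and 1250.6 in WT libraries 45, 54, 57 and 65, against 2120.8, 1387.6, 1164.1 and 1640.3 in Het libraries 31, 53, 56 and 139. Only Het 56 lay within the WT range. WT libraries averaged 1097 ± 136 and Het libraries 1578 ± 411 (SD over 4 libraries). Its log2 difference of 0.50 (SE 0.17) had an adjusted p of 0.458 by limma. Ndufs4, a small subunit whose loss in mice causes a fatal encephalomyopathy, was at 743.4, 972.4, 921.3 and 1042.6 in the WT libraries, against 1467.9, 1067.2, 962.4 and 1191.9 in the Het libraries (log2 difference 0.34, SE 0.15, limma adjusted p = 0.601). Ndufa12 was at 260.4 to 350.8 in WT and 299.2 to 411.9 in Het (0.32, limma adjusted p = 0.646), with the caveat of its copy. Ndufa9, at the joint of the arms, differed little, at 2074.9 to 2275.4 in WT and 2169.6 to 2679.1 in Het (0.11, limma adjusted p = 0.757). Ndufa5 was at 620.2, 665, 622.4 and 516.8 in the WT libraries, against 581.2, 440.5, 557.6 and 722.7 in the Het libraries, the lowest difference of this group (-0.09, limma adjusted p = 0.879). The other members, Ndufa2, Ndufa6, Ndufs6 and Ndufv3, differed by 0.26, -0.0027, 0.13 and 0.09 on the log2 scale. Of these Ndufa2 came nearest to the mean pattern of all members, at 2306.6 and 2115 in Het 31 and Het 139 and 1180.8 to 1559.3 in the other 6 libraries.

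In the proximal membrane arm 7 of 8 tested subunits had a higher mean log2 level in Het. Ndufa3 was the member with the smallest p and the only one whose genotypes did not overlap. It was at 1180, 1481.2, 1252.4 and 1502.8 in WT libraries 45, 54, 57 and 65, against 2081.5, 1626.8, 1526.4 and 1938.2 in Het libraries 31, 53, 56 and 139. The lowest Het library was just above the highest WT library. WT libraries averaged 1354 ± 162 and Het libraries 1793 ± 260 (SD over 4 libraries). Its log2 difference was 0.40, with an SE of 0.13 and an interval (95%) from 0.12 to 0.68. By limma its adjusted p was 0.372, the smallest of any member. Ndufc1, a short membrane subunit, was at 180.1, 146.6, 196.2 and 251.6 in the WT libraries, against 423.9, 253.8, 156.7 and 273.4 in the Het libraries, with Het 56 between WT 54 and WT 45 (0.45, SE 0.29, limma adjusted p = 0.690). Ndufa1, an X-linked subunit needed for assembly, did not share the direction: it was at 1225.3, 1252.4, 1448.8 and 865.6 in the WT libraries, against 1079.4, 777, 1068.9 and 1797.2 in the Het libraries (-0.06, SE 0.24, limma adjusted p = 0.946). It was highest in Het 139 and lowest in Het 53, so the spread within Het exceeded the difference between the genotype means. Differences were 0.22 for Ndufa11, 0.14 for Ndufc2, 0.14 for Ndufa8, 0.11 for Ndufa10 and 0.09 for Ndufa13, all on the log2 scale.

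In the distal membrane arm 7 of 10 subunits had a higher mean log2 level in Het, with Ndufb4 at the top (log2 difference 0.60, SE 0.37, limma adjusted p = 0.685) and Ndufb8 at the bottom. Ndufb8 was at 1238.1, 1213.2, 1179.7 and 1276.6 in WT libraries 45, 54, 57 and 65, against 1518.2, 1020.4, 765.7 and 1340.8 in Het libraries 31, 53, 56 and 139. Het libraries thus lay on both sides of all WT libraries (-0.13, limma adjusted p = 0.849). Of the remaining distal subunits, Ndufb2 differed by 0.41, Ndufb5 by 0.20, Ndufb9 by 0.16, Ndufb10 by 0.13, Ndufb6 by 0.12 and Ndufb7 by 0.11 on the log2 scale. Ndufb11 and Ndufb3 were at -0.06 and -0.00076, so Ndufb3, at 607.5 to 1028.1 in WT and 673.7 to 1015.1 in Het, had nearly equal means. Ndufb1 had no row by that name. Ndufa4, of complex IV, was at 1373.5, 1803.6, 1748.8 and 2156.5 in the WT libraries, against 3338.4, 2313.4, 1468.2 and 2165.8 in the Het libraries (0.35, limma adjusted p = 0.690). Ndufab1 was at 14 to 40.6 in WT and 33.7 to 68.4 in Het (0.66, limma adjusted p = 0.681).

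The positive shift was largest in 2 of the 4 Het libraries, which are set apart here by these same values. Het 31 and Het 139 were the 2 highest of the 8 libraries in 23 of 35 members (65.7%), against 13.0% of all tested genes. Het 31 was highest in 20 members and Het 139 in 13, and neither was lowest in any. WT 45 was lowest in 14 members, Het 53 in 7 and Het 56 in 6. The mean log2 level over the 35 members deviated from its mean over the libraries by -0.21, -0.05, -0.03 and -0.07 in WT libraries 45, 54, 57 and 65, and by 0.35, -0.08, -0.19 and 0.29 in Het libraries 31, 53, 56 and 139. By genotype it was 10.12 ± 0.08 for WT and 10.30 ± 0.27 for Het libraries (SD over 4). Het 53 and Het 56 were thus within the WT range. The summed values of the 37 members were 0.174% to 0.198% of the library total in WT, 0.240% in both Het 31 and Het 139, and 0.180% and 0.176% in Het 53 and Het 56. Without Het 31 and Het 139 together, the median difference was -0.05 and 15 of 35 members were higher in Het. Leaving out the 2 highest Het libraries had to lower the difference, so this fit is a description and not a test. Without Het 31 alone the median was 0.09, and without Het 56 it was 0.24. The count of members without overlap was 9 of 35 (25.7%) without Het 56, against 13.7% of all genes tested then, and 4 (11.4%) without Het 53, against 8.31%. It was 2 (5.71%) without WT 54, WT 57 or WT 65, below the 7.42%, 6.84% and 10.3% of all genes. Single differences also moved with 1 library. Without Het 31 the log2 difference was 0.07 for Ndufs7, 0.15 for Ndufa4, 0.22 for Ndufc1, 0.04 for Ndufa9, 0.09 for Ndufv2 and 0.11 for Ndufv1. Without WT 45 it was 0.09 for Ndufs7, without WT 54 it was 0.37 for Ndufb4, and without Het 139 it was 0.11 for Ndufv2. Without Het 56 it was 0.55 for Ndufa4, 0.70 for Ndufc1, 0.30 for Ndufv2 and 0.27 for Ndufv1.

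**Figure D3:**
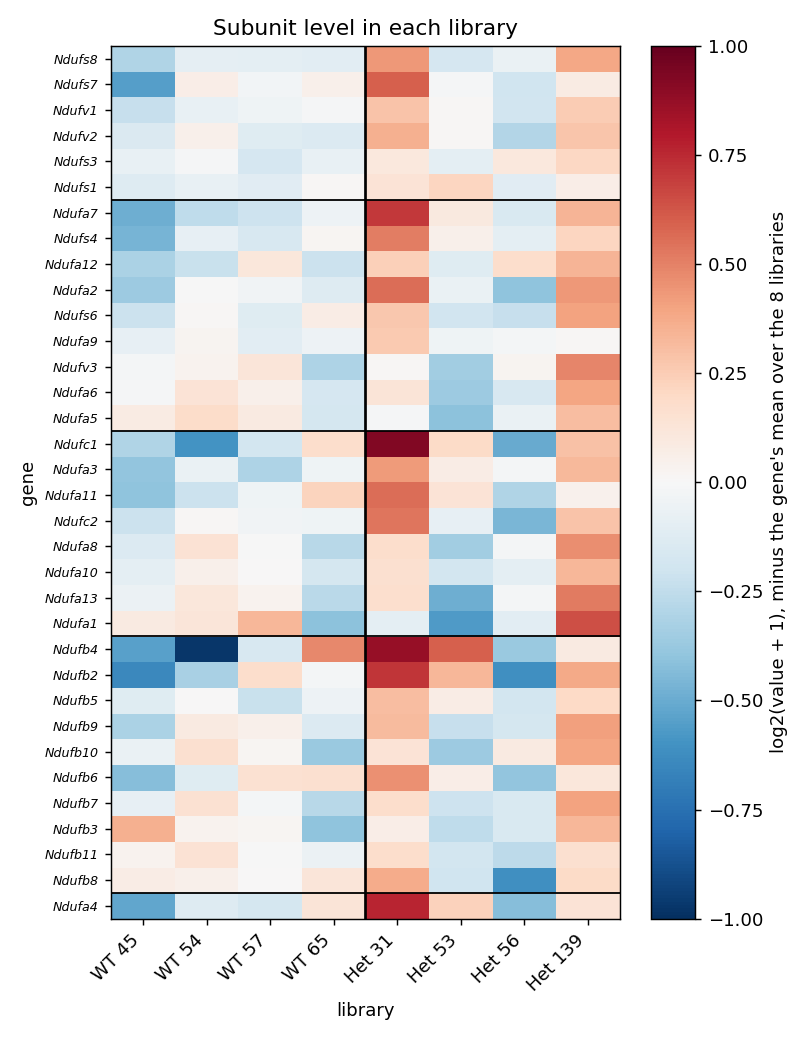
Level of 34 of the 35 tested members (rows, grouped by position in the complex, horizontal lines) in the 8 libraries (columns), as log2(value + 1) minus the gene's mean over the libraries (colour). Red dominates in Het 31 and Het 139, which are the 2 highest libraries in 23 of all 35 members, and blue in WT 45.

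Het libraries therefore differed among themselves more than WT libraries did. The SD of log2 values was larger in Het than in WT in 33 of 35 members (94.3%), against 66.6% of all tested genes. The median SD of the members was 0.17 in WT and 0.32 in Het, compared with 0.18 and 0.25 over all tested genes.

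Members moved together across the 8 libraries, with a second pattern beneath the first. Over the 595 pairs of members the median Pearson correlation was 0.64 and 52 pairs (8.74%) were negative. These correlations are a description over 8 libraries, which share their normalization and whose depth is unknown. The correlation of each member with the mean of the others ranged from 0.29 (Ndufb3) to 0.99 (Ndufa2) and was over 0.5 in 30 of 35. The median for all other tested genes with the member mean was 0.04. A decomposition of the centred log2 values gave a first component with 60.5% of the variance, highest in Het 31 and lowest in WT 45. The second component, with 27.4%, was high in Het 53 and WT 65 and low in Het 139 and WT 54, so it ran across the genotypes. Ndufb4 had the most positive value on it (0.95) and Ndufa1 the most negative (-0.97), followed by Ndufa13 (-0.73), a subunit also known as Grim19. These genes were picked after their values were seen. Ndufa13 was at 2319.3, 2606.1, 2475.9 and 1996.2 in WT libraries 45, 54, 57 and 65, against 2710.3, 1723.7, 2379.9 and 3455.1 in Het libraries 31, 53, 56 and 139, low in the same libraries as Ndufa1. BC002163, the Ndufs5 copy, had a correlation of -0.80 with the second component over the 8 libraries. Ndufab1, likewise outside the decomposition, had one of the other sign, 0.63. Across the 35 members the first component had a Pearson correlation of -0.39 with log2 transcript length, 0.02 with GC content, 0.19 with the share of windows found in other genes and -0.51 with mean log2 level. The second component had a Pearson correlation of -0.02 with log2 transcript length, -0.16 with GC content, 0.28 with the share of windows found in other genes and -0.50 with mean log2 level. The genotype difference had one of -0.19 with length and -0.44 with mean level. By Spearman correlation those with mean level were weaker: -0.38 (first component), -0.35 (second component) and -0.32 (genotype difference). Ndufb4, whose level is uncertain, was the lowest of these members in mean level and the highest in both components and in the difference.

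Some other gene groups, both of the respiratory chain and outside it, were also highest in Het 31 and Het 139. Of 38 subunits of complexes II to V, the rest of the respiratory chain and the ATP synthase, 34 had a higher mean in Het and 0 passed the limma test (median log2 difference 0.22). Their mean log2 level was 10.92 in Het 31 and 10.75 in Het 139, against 10.30 to 10.54 in the other 6 libraries. Of 77 tested cytosolic ribosomal proteins 56 were higher and 0 passed (median 0.17), with 10.80 and 10.63 in Het 31 and Het 139 against 10.27 to 10.54 elsewhere. In both groups Het 53 was at 10.54, just above the highest WT library (10.50 for complexes II to V, 10.46 for ribosomal proteins). For the complex I members Het 53 lay within the WT range. With the ribosomal protein level as a covariate in the limma fit, the median over the complex I members was -0.04 and 12 of 35 were higher in Het. That covariate, a mean over all 83 genes, was itself 10.14 in Het 31 and 9.93 in Het 139, against 9.60 to 9.85 elsewhere. It was thus highest in the same libraries as the members, so this fit is a description and not a test.

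All 16 complex I assembly factors found had a higher mean log2 level in Het, and 0 passed in either direction (median 0.16). Their mean log2 level was 8.83 in both Het 31 and Het 139. It was 8.58 in both Het 53 and Het 56, within the WT range of 8.36 to 8.59. Tmem126a, which acts in building the membrane arm, was at 355.8, 439.8, 371 and 431.8 in WT libraries 45, 54, 57 and 65, against 609, 466.4, 458.2 and 636.4 in Het libraries 31, 53, 56 and 139 (log2 difference 0.43, limma adjusted p = 0.477). Its genotypes did not overlap, with Het 56 closest to WT. Acad9, an assembly factor related to fatty acid dehydrogenases, was at 674.2 to 725.2 in WT and 737.9 to 837.9 in Het (0.22, limma adjusted p = 0.608), also without overlap. Tmem126b, of the same assembly step, was at 203.8 to 284.2 and 269.3 to 355.5 (0.28, limma adjusted p = 0.662). These genes were named for having the smallest p of the 16, which favours genotypes without overlap. Over all tested genes 5.0% had no overlap.

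Regulators of mitochondrial gene expression had no common direction. Of 15 genes 6 were higher in Het and 0 passed (median -0.04). Polrmt, the mitochondrial RNA polymerase, was at 2150.7 to 2607.4 in WT and 1887.4 to 2267.4 in Het (-0.20, limma adjusted p = 0.640). Tfam, which packages mitochondrial DNA and starts its transcription, was at 1764.9 to 2043.3 and 1789.1 to 2634.2 (0.24, limma adjusted p = 0.646). Yy1, a nuclear transcription factor, was at 3068.5 to 3515.1 and 3418.5 to 3678.1 (0.16, limma adjusted p = 0.642).

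**Figure D4:**
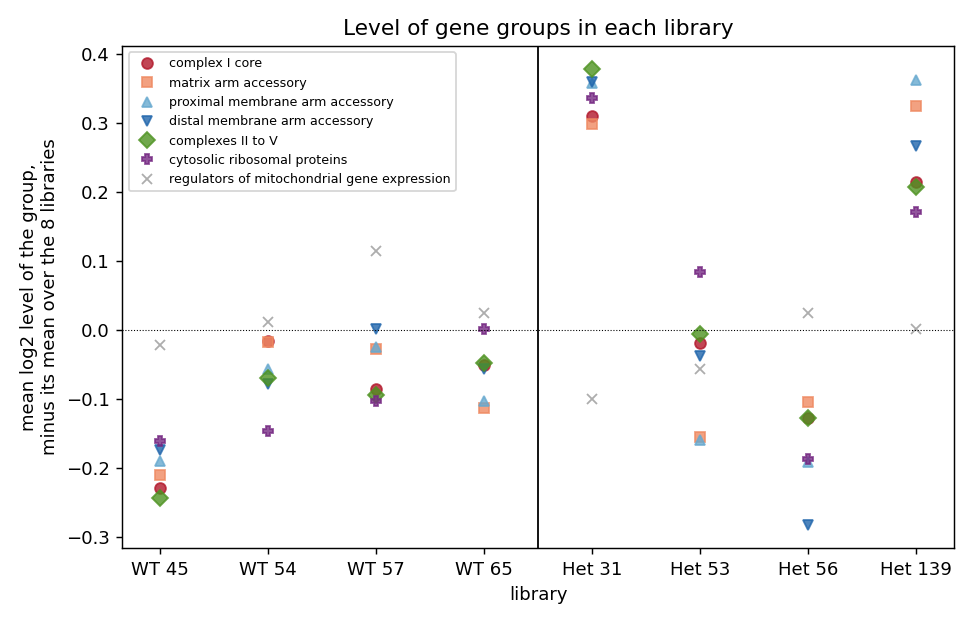
Mean log2 level of each gene group in each library, minus the group's mean over the 8 libraries (points, 1 per group and library; WT left, Het right of the line). The 4 complex I groups, complexes II to V and the ribosomal proteins are highest in Het 31 and Het 139, and the regulators of mitochondrial gene expression are not.

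Transcript length moved with the same libraries over all genes. Complex I transcripts are short, with a median of 758 bases over the 37 members against 2974 over the tested genes with a length (11536 of them, 95.8%). Across these genes, which are not independent replicates, the Spearman correlation of length with a library's deviation from the gene mean was -0.33 in Het 31 and -0.41 in Het 139, and between -0.13 and 0.31 in the other 6 libraries. Among genes outside complex I with transcripts over 500 and up to 1000 bases, 588 in number, the median genotype difference was 0.16 and 76.4% were higher in Het. The 21 members in that range had a median of 0.14, with 16 higher. For lengths over 1000 and up to 2000 bases the median was 0.07 over 2454 other genes (65.1% higher) and 0.16 over 9 members, all of them higher in Het. In transcripts over 4000 bases, where no member lies, it was -0.07. Whether length has a part in the members' shift was not tested.

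**Figure D5:**
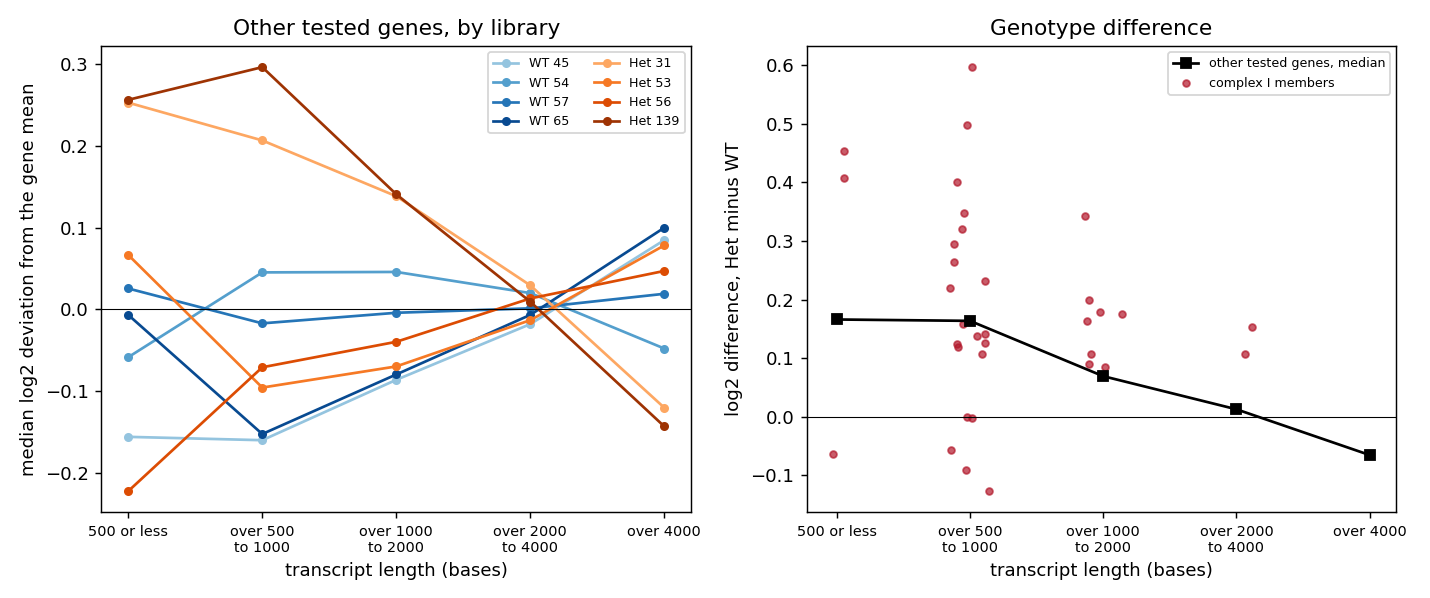
Left, the median log2 deviation of other tested genes in each library by transcript length, where Het 31 and Het 139 are high for short and low for long transcripts. Right, the log2 difference, Het minus WT, of the same genes (black, median) and of 34 complex I members (red, spread sideways for legibility), where the median of other genes is 0.16 in the range over 500 to 1000 bases and -0.07 over 4000.

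Markers of other cells also differed among the libraries. The 10 B cell markers were at a mean log2 level of 8.50 to 9.93 in WT and 8.80 to 11.08 in Het, highest in Het 31, while Het 139 at 9.33 was within the WT range. All 10 were higher in Het, 0 passed the limma test, and none was at 0 in any library. With their level as a covariate the median over the complex I members was 0.10 and 30 of 35 were higher in Het. The NK cell markers were at 5.84 to 7.27 in WT and 6.55 to 8.34 in Het, with 6 of 7 tested higher, and the myeloid markers at 7.03 to 7.88 and 6.59 to 8.65, with 6 of 7 higher; both were highest in Het 31, and 0 passed. The CD4 T cell markers were at 7.04 to 8.13 and 7.35 to 8.34, with 6 of 6 higher and 0 passing. The red cell markers were at 3 to 4.41 and 3.91 to 4.20, with 3 of 4 tested higher and 0 passing. A list of nerve and connective tissue genes, taken with earlier results known, was at 8.30 to 9.52 in WT and 3.30 to 5.90 in Het, with 8 of 8 lower and 5 passing. In this list Het 31 (3.30) and Het 53 (3.62) were lowest, and Het 139 was at 4.50. The CD8 T cell markers were at 14.48 to 14.63 in WT and 14.57 to 14.71 in Het. In such bulk samples, fewer cells of a type and less RNA per cell cannot be told apart. Only the B cell markers were used as a covariate, and the part of the other cells in the levels of complex I transcripts was not tested. The nerve and connective tissue list split by genotype without overlap, so its part cannot be told apart from genotype.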

How the data were processed

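Libraries (8) were made with a stranded mRNA kit, per the labels' protocols. The table holds a linear signal for each gene, which the authors deposited as normalized read counts. CASAVA, TopHat2, HTSeq, DESeq and mm9 are named without roles or versions, per the submitters' processing notes. How the values were normalized is not given in the sources used here. Sorted values nearly coincide in all libraries, so the totals hide differences in total RNA or depth, and no count model was used.

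Genotypes were compared by limma (version 3.58.1, R 4.3.3) on log2(value + 1), with prior variance following the mean level, for the 12048 genes with a mean of at least 10, 2-sided, with Benjamini-Hochberg adjustment over all of them and a threshold of 0.05. The pseudocount of 1 hardly affects members at their levels. The fit was tested on simulated data. Differences are Het minus WT.

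The members and lists were chosen with earlier results of these data known, so lists are described by counts and medians without a test. One core member enters all counts and medians but is not reported here by itself. Named were the other core members, the 5 with the smallest p, the extremes of each position group, Ndufa4, Ndufa4l2, members below the filter, members with a library far from the others, and up to 3 genes of each other list; Ndufa13, Ndufa2, Ndufa6, Ndufb3, Ndufb10 and BC002163 were named after their values were seen. Transcript lengths and shared windows came from GENCODE M21, 1 RefSeq-linked transcript per gene. Alternatives were 2 pseudocounts, 2 filters, 2 scalings, weights, no trend, a robust fit, 2 covariates, and leaving out libraries.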

Additional observations from a re-analysis of the deposited data

Results flagged for a closer look

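In 3 of 82 groups of 4 values (members or position groups within a genotype) 1 library lay far from the other 3, the gap to its nearest neighbour taking up most of the spread. By chance about 1 in 20 such groups would show this. Ndufa9 was at 2679.1 in Het 31 and at 2169.6 to 2246.1 in the other Het libraries. Ndufs8 was at 1158.9 in WT 45 and at 1325.7 to 1338.8 in the other WT libraries. Ndufv2 was at 1982.9 in WT 54 and at 1727.2 to 1757.1 in the other WT libraries.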

How the results depend on the processing

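In all 20 alternatives 0 members passed at an adjusted p under 0.05, and the lowest adjusted p of any member by limma was 0.136, for Ndufa7 without Het 56. Leaving out 1 library at a time, the median difference ranged from 0.086 to 0.24, the members higher in Het from 26 to 33, and the members without overlap from 1 to 9 (2.86% to 25.7%, against 6.25% to 13.7% of all genes), while the differences of Ndufa1 (-0.29 to 0.11), Ndufa5 (-0.21 to 0.030) and Ndufb8 (-0.27 to 0.057) took either sign. With the ribosomal protein covariate the median was -0.038 with 12 members higher, and the differences were -0.22 for Ndufa4, -0.013 for Ndufa9, -0.13 for Ndufb4, -0.27 for Ndufc1, -0.16 for Ndufs7, -0.057 for Ndufv1 and -0.086 for Ndufv2. Without Het 139 and Het 31 together the median was -0.053, with 15 members higher and 3 (8.57%) without overlap, 1 of them higher in Het, against 12.1% of all genes, and Ndufv1 and Ndufv2 were at -0.0028 and -0.053. With the B cell covariate Ndufa1 was at 0.011. The cause of these changes was not tested. The ribosomal protein covariate was itself highest in Het 31 and Het 139, so its fit is a description and not a test. No paired analysis was possible because the genotypes share no replicate number. Sequence shared with other genes, and the 0 of Ndufs5, limit what the values of such members show.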
